A study of Mus musculus with 8 samples.

Results

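The sensors and chaperones of the endoplasmic reticulum (ER) did not move together when activated B cells lacked EIF4A1. The 10 genes examined, chosen by name out of the 53242 in the deposited tables, were the stress sensors Ern1, Atf6 and Eif2ak3, the chaperones and chaperone cofactors Hspa5, Hsp90b1, Calr, Dnajb9 and Sdf2l1, the disulfide isomerase Pdia4 and the degradation factor Herpud1. Each name matched a single gene, and all 10 had enough reads for the test. Splenic B cells came from C57BL/6 mice aged 8 to 12 weeks, either Eif4a1fl/fl CD23-cre (4A1 KO) or Eif4a1+/+ CD23-cre (control), so both genotypes carried the Cre recombinase, which is expressed in B cells from a late stage of their development in the spleen. Culture lasted 24 h, in 40 ng/ml of IL4, on irradiated (120 Gy) CD40LB cells, fibroblasts that supply CD40 ligand and the cytokine BAFF. These feeder cells were removed with an antibody before RNA extraction, and 4 libraries were made from each genotype. Replicates 1 (male) and 2 (female) formed batch A, replicates 3 (male) and 4 (female) formed batch B, and the study left replicate 1 of both genotypes out of its tests because of reduced viability. Fold changes here therefore compare replicates 2 to 4 (n = 3 per genotype), and single values are given for all 8 libraries.

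The libraries held between 31727557 and 43210858 counted reads, and the lowest count of any of the 10 genes in a library was 164, for Ern1. Levels are given as CPM, a gene's reads scaled to the normalised size of its library, which compare a gene between libraries, or as the deposited TPM, which also take transcript length into account and compare genes with each other. Eif4a1 itself had 748 to 940 CPM in the 4 controls and 556 to 689 in the 4 4A1 KO libraries, counted over the whole gene and so without regard to the deleted exons. Of the 9 B cell markers, Ms4a1 had overlapping levels (517 to 653 CPM in controls, 584 to 644 in 4A1 KO), and 4 others, among them Cd79a and Cd79b, were called lower in 4A1 KO, where 13.7% of all tested genes were. By the adjusted p alone 6 of the 9 were lower, Pax5 (-0.23) and Blnk (-0.42) included, and Fcer2a was higher (0.30). The 14 fibroblast markers summed to 30.3 to 54.1 CPM in controls and 26.7 to 37.5 in 4A1 KO, the most abundant of them being Thy1, which lymphocytes can also express, and Col1a1, at 5.25 to 27.4 and 6.22 to 16.1 CPM and Lum and Postn at 0 in every library. The 7 T cell markers summed to 14.5 to 24.5 CPM in controls and 10.4 to 19.5 in 4A1 KO, with Cd3g at 0. Nearly all of this was Lck, which was lower in 4A1 KO by the adjusted p alone (-0.40). The 7 myeloid markers summed to 4.09 to 8.14 in controls and 7.31 to 8.97 in 4A1 KO, with Mpo and S100a8 at 0. Most of the myeloid sum was Adgre1, which was called higher in 4A1 KO (log2 fold change 0.62). Of the 9 fibroblast markers tested, Fn1 was called higher (0.86) and Col3a1 lower (-1.57), and Thy1 was lower by the adjusted p alone (-0.50). The part of these other cells in the results was not tested.

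Secreted and membrane proteins fold in the ER, and a cell senses an excess of unfolded chains there through a response known as the unfolded protein response. IRE1, encoded by Ern1, splices the mRNA of the transcription factor XBP1, ATF6 is cut in the Golgi to release a transcription factor, and PERK, encoded by Eif2ak3, phosphorylates the initiation factor eIF2 and so raises the translation of ATF4. XBP1 and ATF6 raise transcription of ER chaperones and degradation factors, often through the ER stress response element (ERSE), and B cells depend on XBP1 when they turn into antibody-secreting plasma cells. Gene counts do not show splicing of Xbp1, cutting of ATF6 or phosphorylation of PERK, so what follows concerns the abundance of mRNA.

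The promoters of 9 of the 10 genes, all but Atf6, were matched by symbol to RefSeq windows of 250 bases before and 50 bases after the start site (GRCm38.p6), and each window was found unchanged at a single place in GRCm39, the build of the counts. They were searched on both strands for the ERSE, its shorter relative ERSE-II, the core of the XBP1 element UPRE (TGACGTG), the cyclic AMP response element (TGACGTCA) and an ATF4 element (TGATGNAAT). The full ERSE was in 0.119% of all 32851 windows and in those of Hspa5, Hsp90b1 and Calr. The ERSE-II was in 0.0365% of windows and in that of Herpud1, and the UPRE core in 2.01% of windows and in that of Hspa5, 157 to 151 bases upstream of the start. The cyclic AMP response element and the ATF4 element, in 1.79% and 0.965% of windows, were in none of the 9. The windows of Ern1, Eif2ak3, Dnajb9, Sdf2l1 and Pdia4 held none of these letters, which says nothing of sites elsewhere or of variants of the motif. The matches of the ERSE and ERSE-II are shown because the 4 genes that hold them differed in their response. Capitals mark the fixed bases of the motif, and 5 bases are added at each side.
Hspa5 ERSE (chr2:34662032-34662060, plus strand): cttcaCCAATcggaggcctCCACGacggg
Hsp90b1 distal ERSE (chr10:86541497-86541525, minus strand): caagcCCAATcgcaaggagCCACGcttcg
Hsp90b1 proximal ERSE (chr10:86541392-86541420, plus strand): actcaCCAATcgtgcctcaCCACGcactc
Calr ERSE (chr8:85573699-85573727, plus strand): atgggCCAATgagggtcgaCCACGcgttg
Herpud1 ERSE-II (chr8:95113000-95113020, plus strand): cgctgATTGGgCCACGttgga
Relative to the RefSeq start site, the motifs lay 65 to 47 bases upstream in Hspa5, 212 to 194 and 107 to 89 bases upstream in Hsp90b1, 162 to 144 in Calr and 52 to 42 in Herpud1. The distal site of Hsp90b1 and those of Hspa5 and Herpud1 ran in the direction of the gene, and the other Hsp90b1 site and that of Calr ran against it. The GENCODE span of Hspa5 and of Hsp90b1, given below, begins upstream of the RefSeq start and includes the Hspa5 site and the proximal Hsp90b1 site.

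Of the 10 genes, 4 were called lower in 4A1 KO B cells (Hsp90b1, Herpud1, Sdf2l1 and Pdia4) and 1 was called higher (Ern1), at an adjusted p under 0.05 and a log2 fold change beyond 0.5 in either direction. Among all 14218 genes tested, 13.7% were called lower and 11.6% higher, 25.3% in all. By the adjusted p alone, Calr was also lower and Dnajb9 and Atf6 were also higher, which makes 5 lower and 3 higher genes where the same rule gave 26.7% and 26.3% of all genes, 53.0% together. Hspa5 and Eif2ak3 did not pass the test. The median log2 fold change of the 10 was -0.16 and that of all tested genes 0.01. In 8 of the 10 genes all 4 pairs of same-numbered libraries changed in the same direction, against 67.0% of the 14211 genes tested over 8 libraries. In 7 the 4 libraries of each genotype did not overlap in CPM, against 36.8% of those genes (19.6% lower and 17.2% higher in 4A1 KO). Of the 7, 5 were lower and 2 higher. In bulk samples such as these, fewer cells of a type and less RNA per cell cannot be told apart.

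**Figure D1:**
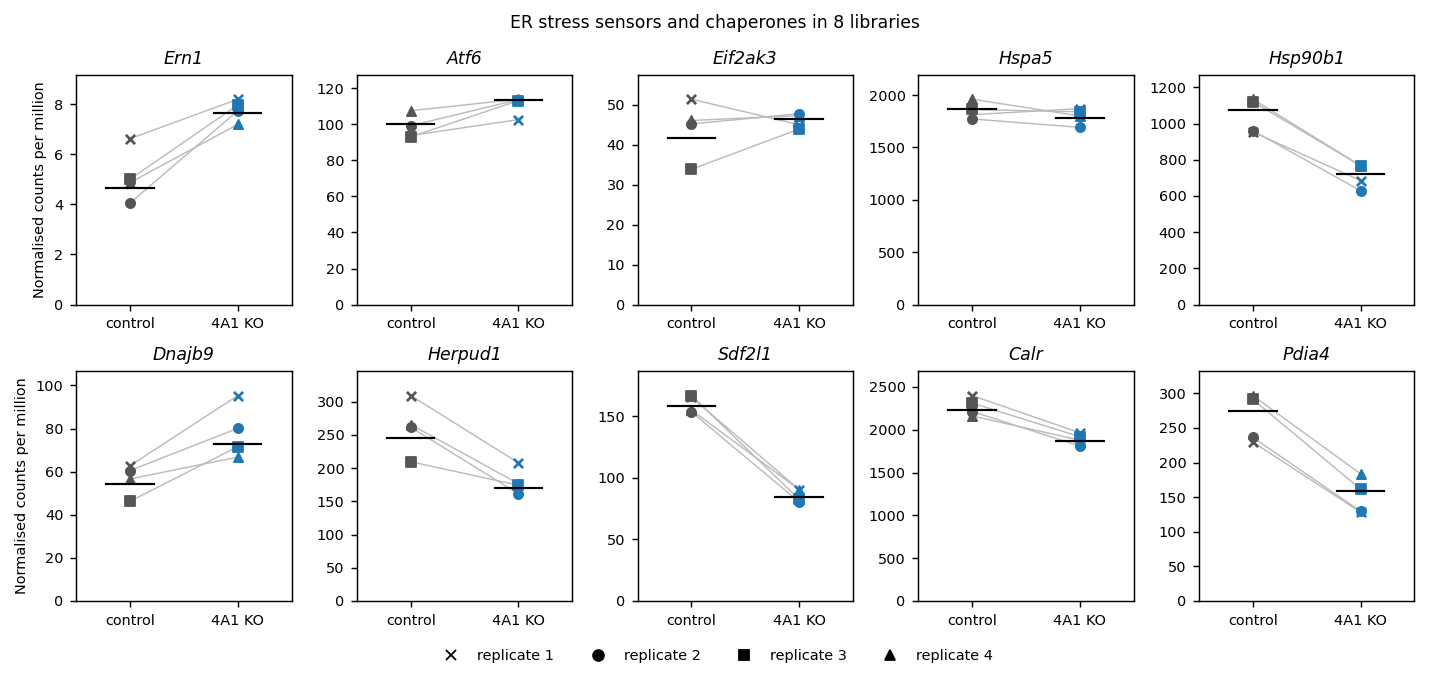
Normalised CPM (y axis, from 0) of the 10 genes in the 4 control (grey) and 4 4A1 KO (blue) libraries, with grey lines joining same-numbered libraries and black bars at the mean of replicates 2 to 4. Sdf2l1, Pdia4, Hsp90b1, Herpud1 and Calr were lower in every 4A1 KO library than in every control, Ern1 and Dnajb9 were higher, and Hspa5, Atf6 and Eif2ak3 overlapped.

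Hspa5 (ENSMUSG00000026864, chromosome 2 from 34661982 to 34668880 of GRCm39) encodes BiP, the Hsp70 chaperone of the ER, which also binds the sensors when few unfolded chains are present. It had 1814, 1773, 1863 and 1961 CPM in controls 1 to 4, against 1872, 1693, 1841 and 1801 in the 4A1 KO libraries in the same order. The genotypes overlapped, and 4A1 KO was higher in replicate 1 and lower in the others. Hspa5 had a log2 fold change of -0.07 (SE 0.04, edgeR quasi-likelihood test, Benjamini-Hochberg (BH) adjusted p = 0.208). Its 95% interval, from -0.17 to 0.03, corresponds to between 0.891 and 1.02 times the control level. The genes whose CPM over the 8 libraries lay nearest to those of Hspa5, by the root mean square difference in log2 CPM after centring, were Klhdc3 (0.034), Rpf1, Rmdn3, Xylt2 and Preb (0.037), where the median over 8382 genes was 0.194.

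The cofactors of BiP moved apart. Sdf2l1 (ENSMUSG00000022769, chromosome 16 from 16948002 to 16950252), a small ER protein found in complex with BiP and its J-domain partners, fell most of the 10. It had 166, 154, 167 and 155 CPM in controls 1 to 4, against 90.5, 80.5, 82.6 and 90.5 in the 4A1 KO libraries in the same order, with a wide gap between the genotypes. The log2 fold change was -0.91 (SE 0.06, edgeR, BH adjusted p = 1.45e-05), or -46.7%. Dnajb9 (ENSMUSG00000014905, chromosome 12 from 44252341 to 44257171), also called ERdj4, is a J-domain protein that brings BiP to IRE1 and to misfolded clients. It rose, from 62.8, 60.5, 46.3 and 56.6 CPM in controls 1 to 4 to 95.3, 80.1, 71.6 and 66.7 in 4A1 KO 1 to 4. Its log2 fold change was 0.42 (SE 0.08, edgeR, BH adjusted p = 0.00152), below the fold threshold except when replicate 4 was left out (0.52).

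Hsp90b1 (ENSMUSG00000020048, chromosome 10 from 86526073 to 86541446) encodes GRP94, the Hsp90 chaperone of the ER, which folds integrins and Toll-like receptors. Controls 1 to 4 had 954, 962, 1121 and 1135 CPM and 4A1 KO 1 to 4 had 685, 629, 767 and 768. All 4A1 KO libraries were below all controls, and within each genotype batch B lay above batch A. The log2 fold change was -0.57 (SE 0.04, edgeR, BH adjusted p = 1.93e-05), or -32.8%. On the same strand, 2 other annotated genes overlap exons of Hsp90b1, and how reads were divided among them is uncertain. Gm15344 had 757 to 1460 counts, at most 3.57% of those of Hsp90b1 in a library, and Gm54730 had 711 to 1876, at most 4.16%. Mzb1, a B cell protein that works with GRP94 in folding immunoglobulin M, fell from 172 ± 3.35 to 50.0 ± 15.7 CPM (mean ± SD of 3 libraries), or -1.82 in log2 fold change.

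Calr (ENSMUSG00000003814, chromosome 8 from 85567946 to 85573667) encodes calreticulin, which binds sugar chains of newly made glycoproteins and calcium. It had 2399, 2213, 2312 and 2161 CPM in controls 1 to 4, against 1964, 1810, 1918 and 1877 in the 4A1 KO libraries in the same order. The genotypes did not overlap, and the log2 fold change was -0.25 (SE 0.04, edgeR, BH adjusted p = 0.00104), or -16.1%. Canx, the membrane-bound relative calnexin, had 1029 ± 73.4 CPM in control against 986 ± 46.7 in 4A1 KO (mean ± SD of 3 libraries), or -0.06 in log2 fold change, which did not pass the test (95% interval -0.16 to 0.04). Pdia3, the disulfide isomerase that both lectins recruit, fell from 899 ± 21.3 to 573 ± 8.69 CPM, a log2 fold change of -0.65.

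Pdia4 (ENSMUSG00000025823, chromosome 6 from 47770077 to 47790462), also called ERp72, forms and rearranges disulfide bonds. It had 230, 236, 291 and 297 CPM in controls 1 to 4, against 128, 130, 162 and 184 in the 4A1 KO libraries in the same order. The genotypes did not overlap, although the highest 4A1 KO libraries, both of batch B, came nearer to the controls of batch A than the other 4A1 KO libraries did. The log2 fold change was -0.80 (SE 0.05, edgeR, BH adjusted p = 1.45e-05), or -42.7%. Pdia6 fell as well, by 0.65 on the log2 scale, and P4hb, the founding disulfide isomerase, fell by 0.34. Ero1b, an oxidase that recharges these enzymes, had a log2 fold change of 0.02 and did not pass the test. Ero1a, another such oxidase, was higher by the adjusted p alone (0.34, named after its value was seen).

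Herpud1 (ENSMUSG00000031770, chromosome 8 from 95113022 to 95123141) encodes a membrane protein that assembles the HRD1 complex, through which misfolded proteins leave the ER for degradation. It had 309, 261, 209 and 266 CPM in controls 1 to 4, against 208, 161, 174 and 176 in the 4A1 KO libraries in the same order. The lowest control, of replicate 3, was just above the highest 4A1 KO library, of replicate 1. Its log2 fold change of -0.52 (SE 0.08, edgeR, BH adjusted p = 5.16e-04) lay at the fold threshold. It was -0.43 without replicate 2 and -0.48 without replicate 4, which ended the call, while the adjusted p stayed under 0.05. Of the genes of the same complex, Syvn1, which encodes the ubiquitin ligase HRD1, fell by 0.37 and its partner Sel1l by 0.33 on the log2 scale. Other genes of ER-associated degradation moved in both directions. Erlec1, Selenos and Derl1 rose by 0.77, 0.44 and 0.23, and Os9 had -0.05 and did not pass the test. Derl3, Edem1 and Vcp had -1.61, -0.67 and -0.47. Of these genes, all but Derl3 and Edem1 were named after their values were seen.

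The sensors were the 3 least abundant of the 10 by TPM. Ern1 (ENSMUSG00000020715, chromosome 11 from 106283818 to 106378686) had 6.62, 4.06, 5.01 and 4.87 CPM in controls 1 to 4, against 8.20, 7.74, 7.97 and 7.19 in the 4A1 KO libraries in the same order. Every 4A1 KO library was above every control, and control 1 was the highest control. The log2 fold change was 0.72 (SE 0.12, edgeR, BH adjusted p = 0.00110), a level 1.64 times that of control. It rests on 164 to 323 reads per library. In the 4 pairs the log2 difference was 0.31, 0.93, 0.67 and 0.56.

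Atf6 (ENSMUSG00000026663, chromosome 1 from 170532026 to 170696208) had 93.8, 99.2, 93.1 and 108 CPM in controls 1 to 4, against 102.6, 113.7, 113.2 and 113.9 in the 4A1 KO libraries in the same order. Control 4 lay above 4A1 KO 1, so the genotypes overlapped, but each pair was higher in 4A1 KO. The log2 fold change of 0.19 (SE 0.06, edgeR, BH adjusted p = 0.0188) passed the test only in part of the fits. The adjusted p was 0.0713 without the replicate block, 0.0960 without replicate 2 and 0.134 without replicate 3. Eif2ak3 (ENSMUSG00000031668, chromosome 6 from 70821461 to 70882235) had 51.4, 45.2, 33.9 and 46.1 CPM in controls 1 to 4, against 45.0, 47.8, 44.0 and 47.3 in the 4A1 KO libraries in the same order. These overlapped throughout, with control 3 as the lowest and control 1 as the highest library. Its log2 fold change was 0.16 (95% interval -0.01 to 0.34, edgeR, BH adjusted p = 0.105). The value depended on the libraries used, with 0.06 without replicate 3 (adjusted p = 0.598), 0.07 over all 8 libraries (adjusted p = 0.573) and 0.23 without replicate 4 (adjusted p = 0.0309, all edgeR).

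The 9 other genes were also set against Hspa5 within each library, a ratio that uses no scaling between libraries. Hspa5 was taken as the reference after its level had been seen to differ little, so the ratios restate the differences in CPM and are given as a description, with no test. In control, the log2 ratio of Sdf2l1 to Hspa5 counts was -3.53 ± 0.09 and in 4A1 KO -4.39 ± 0.07 (± SD over 4 libraries), a difference of -0.86. The differences were -0.77 for Pdia4, -0.51 for Hsp90b1, -0.49 for Herpud1 and -0.22 for Calr, and 0.51 for Dnajb9 and 0.66 for Ern1. In these 7 genes the genotypes did not overlap, and in Atf6 (0.21) and Eif2ak3 (0.12) they did. They are the same 7 genes that did not overlap in CPM, as 36.8% of all genes did not. The share of all genes was not computed for the ratio. In the deposited TPM the 9 differences had the same signs, from -0.88 for Sdf2l1 to 0.68 for Ern1.

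**Figure D2:**
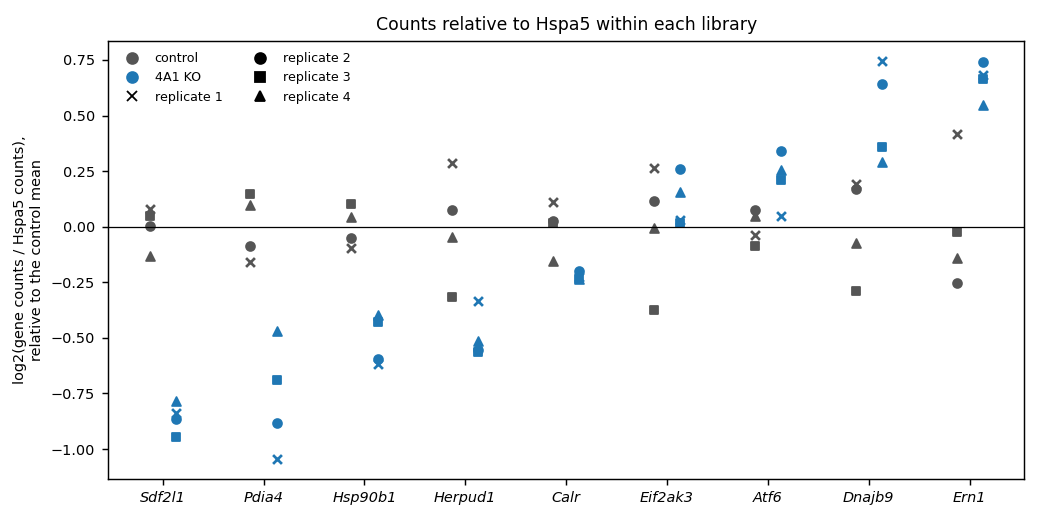
Log2 ratio of each gene's counts to the counts of Hspa5 in the same library (y axis), after subtraction of the mean control ratio, for 4 control (grey) and 4 4A1 KO (blue) libraries and a symbol for each replicate. The 5 genes at the left, from Sdf2l1 to Calr, lay lower in every 4A1 KO library than in every control, and Dnajb9 and Ern1 at the right lay higher.

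By TPM, Calr was the most abundant of the 10 in control (1949 ± 57.7, SD, n = 3), followed by Hspa5 (1248 ± 106) and Hsp90b1 (717 ± 77.3). Sdf2l1 (272 ± 12.7), Herpud1 (260 ± 37.7) and Pdia4 (217 ± 30.3) came next, and neighbours among these 3 overlapped between libraries. Dnajb9 (42.4 ± 5.90), Atf6 (26.1 ± 2.51), Eif2ak3 (18.1 ± 3.08) and Ern1 (1.30 ± 0.112) followed without overlap. In 4A1 KO the order was the same except that Herpud1 (178 ± 13.4) stood above Sdf2l1 (144 ± 11.3), which overlapped with Pdia4 (124 ± 23.7). Together the 10 genes took 0.605% ± 0.0228 of all counts in control and 0.501% ± 0.0222 in 4A1 KO (mean ± SD of 3 libraries). Most of this sum was Hspa5, Hsp90b1 and Calr, which together took 0.517% ± 0.0202 in control and 0.436% ± 0.0195 in 4A1 KO.

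The TPM were compared with limma on log2(TPM + 1), a scale on which the change of low genes is understated. Of the 10 genes, 5 were lower (Hsp90b1, Herpud1, Sdf2l1, Calr and Pdia4) and 2 higher (Ern1 and Dnajb9) at an adjusted p under 0.05, where 24.9% and 22.3% of 12976 genes were. Atf6 had a log2 difference of 0.17 with an adjusted p of 0.105 there (limma with Benjamini-Hochberg adjustment). The test on TPM lost Calr in every fit that left out a replicate, and Dnajb9 and Herpud1 in some of them. The percent change in mean TPM was -46.9% for Sdf2l1, -42.8% for Pdia4, -32.8% for Hsp90b1, -31.6% for Herpud1, -16.2% for Calr, 33.1% for Dnajb9 and 67.3% for Ern1.

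The batch term passed the test for 3 of the genes. The 8 libraries used for the batch, sex and interaction terms include replicate 1 of both genotypes, male and of batch A. The study left this replicate out for reduced viability, and its part in these terms was not tested. In a fit of all 8 libraries Pdia4 was higher in batch B by 0.38 and Hsp90b1 by 0.23 on the log2 scale, and Dnajb9 was lower there (-0.30), with adjusted p of 6.19e-04, 0.00241 and 0.0176 (edgeR, BH adjusted), a result that 28.2% of all genes shared. The sex term passed the test for 0 of the 10 and for 6.88% of all genes, and Atf6 and Calr had unadjusted p of 0.0341 and 0.0227 from edgeR. The genotype effect was not found to differ between sexes or between batches in any of the 10 genes (edgeR interaction terms, lowest unadjusted p 0.0507, for Dnajb9 and sex). Among all 14211 genes the adjusted p passed for 1 with batch and 0 with sex, so this says little of the 10 genes themselves. In both batches and both sexes Pdia4 was lower in 4A1 KO, with log2 differences of -0.84, -0.87, -0.85 and -0.69 in replicates 1 to 4.

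The wider machinery of the ER was described with 7 lists that together held 122 genes, of which 121 were tested. Of these, 10 were called lower and 7 higher, or 8.26% and 5.79%, beside 13.7% and 11.6% of all tested genes, and their median log2 fold change was -0.04. By the adjusted p alone, 36 were lower and 33 higher, where 26.7% and 26.3% of all genes were. The counts of single lists that follow are to be read beside these same shares.

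Among 17 transducers and regulators of the response, 2 were called lower and 1 higher, and 3 and 7 by the adjusted p alone. Xbp1 fell from 145 ± 14.5 to 75.5 ± 7.46 CPM (mean ± SD of 3 libraries), or -0.94 in log2 fold change (edgeR, BH adjusted p = 1.02e-05). Its level was 128 to 164 CPM in the 4 controls and 68.6 to 86.6 in 4A1 KO, so that the RNA of the IRE1 substrate was lower where that of IRE1 was higher. Of the proteases that cut ATF6, Mbtps2 rose by 0.37 on the log2 scale and Mbtps1 had -0.02. The PERK branch, in which ATF4 acts downstream of eIF2, showed Atf4 at 625 ± 22.3 CPM in control against 858 ± 50.1 in 4A1 KO (mean ± SD of 3 libraries), or 0.46 in log2 fold change. Ppp1r15a, the phosphatase subunit that reverses the action of PERK, had 0.52 with wide spread between pairs (0.14 to 1.04), whereas Ddit3, which encodes CHOP, fell by 0.29. Of 12 further ATF4 targets and related genes tested, 3 were called higher and 2 lower. By the adjusted p alone 5 were higher and 2 lower, and the median log2 fold change was 0.20. The genes called lower were Chac1 (-1.07) and Ddit4 (-0.78). Those called higher were Atf5 (0.87), Atf3 (0.66) and Asns, and all of these but Asns were named after their values were seen. Asns, asparagine synthetase, rose by 0.61 and Trib3 had 0.22 with an adjusted p of 0.283 (edgeR, BH adjusted).

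Among 19 partners of BiP and luminal folding factors, 1 was called in each direction, and 8 were lower and 4 higher by the adjusted p alone. Hyou1, the exchange factor that reloads BiP, had 460 ± 57.4 CPM in control against 454 ± 38.4 in 4A1 KO libraries (mean ± SD of 3), and like Hspa5 it did not pass the test (log2 fold change -0.02, 95% interval -0.12 to 0.09). Manf, a secreted factor that binds BiP, fell from 315 ± 27.3 to 180 ± 16.4 CPM, a log2 fold change of -0.81. The J-domain proteins Dnajc3 and Dnajb11 fell by 0.47 and 0.21 on the log2 scale, and Creld2 by 0.37. The gene of the list called higher was Dnajc1, a J-domain protein of the ER membrane, with a log2 fold change of 0.63, named after its value was seen. Of the 10 glycoprotein folding genes 1 was called lower (Pdia3), and of 16 genes of disulfide formation 2 were called lower and 1 higher. By the adjusted p alone, 4 of the former were lower and 1 higher, and 6 of the latter were lower and 4 higher.

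Of 24 genes of ER-associated degradation, 2 were called lower and 2 higher, while by the adjusted p alone 5 were lower and 11 higher. The largest fall was that of Derl3, a channel component induced by XBP1, with 6.17 to 8.41 CPM in the 4 controls and 1.80 to 3.04 in 4A1 KO, a log2 fold change of -1.61. Edem1, which delivers glycoproteins to the channel, fell by 0.67. The 23 genes for protein entry into the ER had 1 called lower and 2 higher, and Sec61a1, the channel itself, rose by 0.16, below the fold threshold. Of 12 oligosaccharyltransferase genes, which attach sugar chains, 1 was called lower and 0 higher, with 4 lower and 1 higher by the adjusted p alone (edgeR).

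**Figure D3:**
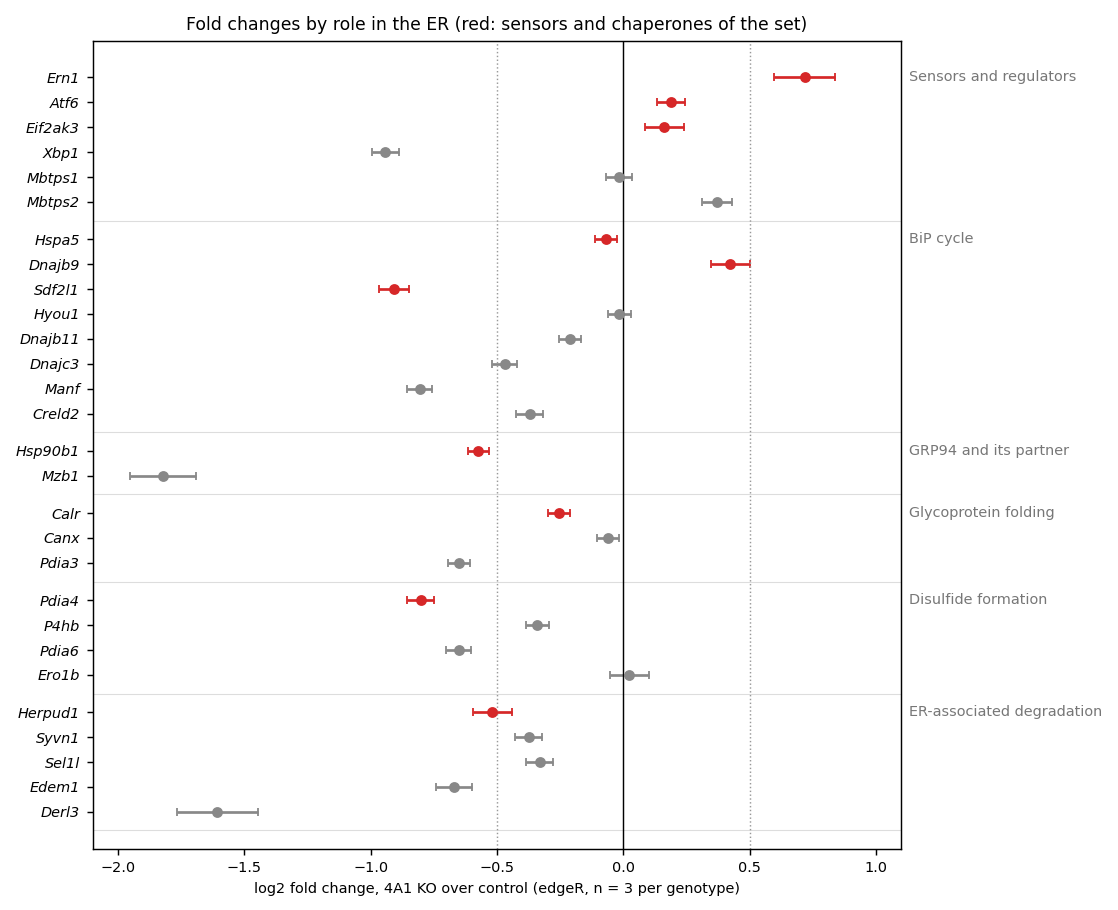
Log2 fold change of 4A1 KO over control (x axis) from edgeR with its standard error (bars, n = 3 per genotype) for the 10 genes (red) and other named genes of the same roles (grey); dotted lines mark 0.5 in either direction. Hspa5, Hyou1 and Canx lay near 0, Ern1 and Dnajb9 to the right, and Sdf2l1, Pdia4, Manf and Xbp1 between -0.80 and -0.94.

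**Figure D4:**
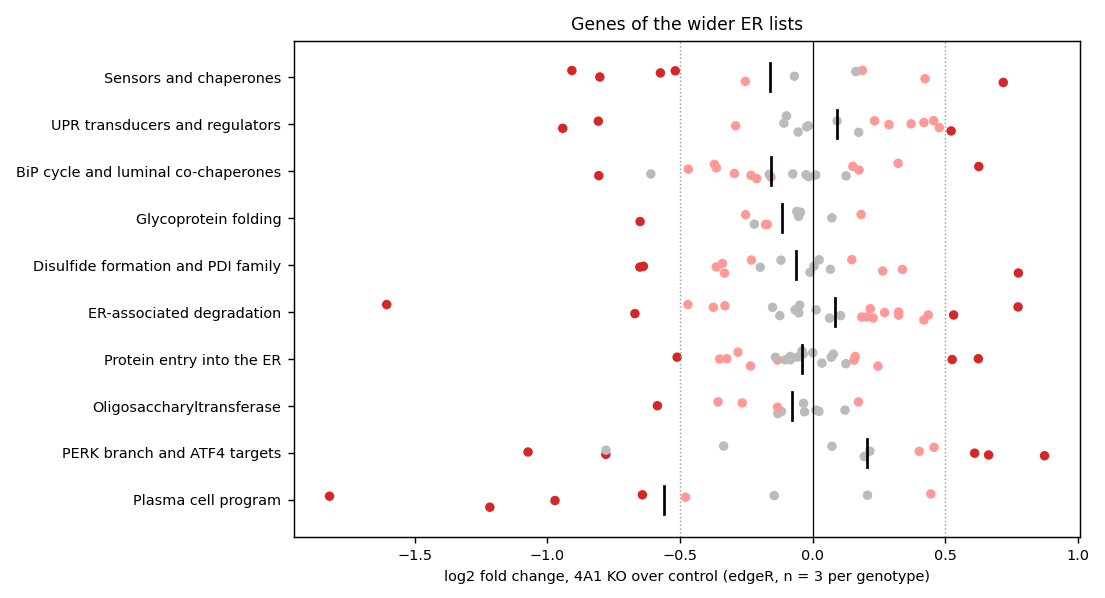
Log2 fold change (x axis, edgeR, n = 3 per genotype) of every tested gene among the 10 genes, the ER lists, the ATF4 targets and the plasma cell genes; dark red points were called, light red points passed the adjusted p alone, grey points did not, and black bars are medians, with dotted lines at 0.5 in either direction. The medians of the ER lists lay between -0.16 and 0.09, and that of the plasma cell genes at -0.56.

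Of 8 genes of the plasma cell program, for which the ER of a B cell expands, 4 were called lower and 0 higher, beside 13.7% and 11.6% of all genes, and their median log2 fold change was -0.56. By the adjusted p alone 5 were lower and 1, Ell2, was higher, with a log2 fold change of 0.45 (named after its value was seen). Besides Mzb1, Prdm1, which encodes BLIMP1, had 8.53 ± 2.71 CPM in control against 5.53 ± 2.07 in 4A1 KO (mean ± SD of 3 libraries), or -0.64 in log2 fold change, although the pair of replicate 1 went the other way (0.22). Irf4 had -0.15 and did not pass the test. Jchain ranged from 10.5 to 24.6 CPM in controls and from 8.75 to 27.4 in 4A1 KO, and its pairs moved in both directions. Of the 9 B cell markers 4 were called lower as well, and the part of such changes in the ER genes was not tested.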

How the data were processed

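The authors trimmed the reads with Trim Galore 0.6.6, mapped them to GRCm39 with HISAT2 2.1.0 and deposited raw read counts per gene, made with Seqmonk over merged isoforms on the opposing strand, and TPM calculated with StringTie 2.1.1. How reads mapping to several places were counted is not given in the sources used here. All columns carried the title of a sample.

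Counts of replicates 2 to 4 were filtered with filterByExpr, normalised with TMM and tested with edgeR 4.0.16 (R 4.3.3) by quasi-likelihood, the model holding batch, sex and genotype, two-sided, with Benjamini-Hochberg adjustment over all 14218 genes. Standard errors are the log2 fold change divided by the square root of edgeR's F. The CPM shown were scaled with TMM over all 8 libraries. Batch and sex equal the replicate number as a block in these libraries, and the pairing rests on these labels. Same-numbered libraries, each centred on its genotype, correlated across genes at Pearson's r of 0.594, 0.502 and 0.432, and other pairs at -0.253 on average. Centring on the mean of so few libraries makes the other pairs negative wherever same-numbered pairs are positive. The value of the other pairs is therefore no separate evidence for the pairing. TPM were tested with limma 3.58.1 over the 12976 genes whose mean reached 1 TPM. Log2 CPM were computed with an offset of 0.5 for the genes most like Hspa5, which were sought among genes of at least 10 CPM. Pseudogenes at least 90% identical to the 10 genes over at least 200 bases (blastn 2.17.0) had at most 2 counts in any library. Coordinates come from GENCODE M39.

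The genes and lists were chosen with earlier results of these data known. The 10 genes, Eif4a1 and the same set of pathway genes were named whatever their values. Ms4a1, Cd79a, Cd79b, Pax5, Blnk, Fcer2a, the markers of other cells, Dnajc1, Ell2, Erlec1, Selenos, Derl1, Os9, Vcp, Ero1a, Chac1, Ddit4, Atf5, Atf3, Gm15344 and Gm54730 were named beside them after their values were seen. The alternatives were DESeq2 size factors, upper-quartile scaling, DESeq2 1.42.0 with and without normal shrinkage, no filter on low values, all 8 libraries, no replicate block, each replicate left out in turn, glmTreat of edgeR and a TPM pseudocount of 0.1. The batch and sex terms and the ratios to Hspa5 were added after the values had been seen. Simulated data were used to test the code. Replicates came from separate mice, per the study's methods.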

Additional observations from a re-analysis of the deposited data

Results flagged for a closer look

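Among the named genes, 76 sets of 4 libraries were examined for a library standing away from the rest, and 2 had such a library where about 3.8 arise by chance. Atf6 in 4A1 KO had a gap equal to 0.931 of its range, between 4A1 KO 1 at 102.6 CPM and the others at 113.2 to 113.9. Ddit3 in 4A1 KO had a gap equal to 0.949 of its range, between 4A1 KO 1 at 64.8 CPM and the others at 34.8 to 36.3. The library is the same for both genes and belongs to replicate 1, which the comparisons of 3 against 3 leave out.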

How the results depend on the processing

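Hspa5 stayed within -0.09 to -0.04 and outside the threshold in all 11 alternatives for the counts, and Sdf2l1 (-0.97 to -0.85) and Pdia4 (-0.86 to -0.77) kept their call in all 11. No direction was reversed for any of the 10 genes in counts or TPM. The number of the 10 genes called lower in the counts was 4, or between 3 and 4 once a replicate was left out. The number called higher was 1, or 1 to 2 with a replicate left out, with Dnajb9 added without replicate 4. When tested against a log2 fold change of 0.5 itself (glmTreat), 2 were lower and 0 higher, and 11.4% of all genes were called in place of 25.3%, by construction of that test, which for Ern1, Hsp90b1 and Herpud1 gave an adjusted p of 0.105, 0.111 and 0.699 (edgeR). Herpud1 had -0.50 and lost its call with upper-quartile scaling. By the adjusted p alone, 5 were lower in each fit that left out a replicate and 2 to 4 higher. In the TPM, 3 to 4 of the 10 were lower and 1 to 2 higher after leaving out a replicate. Calr had adjusted p of 0.0967, 0.101 and 0.0628 without replicates 2, 3 and 4, Herpud1 0.0584 and 0.0602 without replicates 2 and 4, and Dnajb9 0.0831 and 0.0899 without replicates 2 and 3 (limma). Without the filter on low TPM 1 was higher, with Dnajb9 at an adjusted p of 0.0860 and Herpud1 at 0.0610 (limma), and the cause was not tested. Among the 7 ER lists 9 to 11 genes were lower and 6 to 10 higher over the 9 alternatives run for them, which did not include glmTreat or shrinkage. Without the replicate block, the calls of the 10 genes were 4 lower and 1 higher as before, 21.1% of all genes were called, and Atf6 alone lost its adjusted p. No scaling moved the median of all genes by more than 0.0228 on the log2 scale. Ern1 had the lowest counts of the 10.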
